A study of Homo sapiens with 6 samples.

Results

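The genes of cytosolic DNA sensing and interferon regulation followed here in irradiated U-2 OS cells were CGAS, IFI16, STING1, TREX1, TBK1, IRF3, IRF1, IRF7, IRF9 and IFNB1. The set is a list of gene names, drawn up with earlier results of these data known, and its members were found by mapping the transcript identifiers of the deposited tables to GENCODE gene symbols, which gave 10 genes of 21447 with a summed count. U-2 OS is an established human osteosarcoma line, grown here unsynchronized. It was profiled by bulk RNA-seq in 3 untreated samples and in 3 samples taken 24 h after 4 Gy of ionizing radiation (IR), with no other treatment or genotype. The study calls the samples of a group independent, but the labels and methods do not say whether they were separate cultures, so P values measure the spread between these samples, of which part may be technical.

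In mammalian cells, cGAS binds double-stranded DNA in the cytosol, for example in ruptured micronuclei, and makes the cyclic dinucleotide cGAMP. cGAMP binds STING in the endoplasmic reticulum, STING moves to the Golgi and recruits the kinase TBK1, and TBK1 phosphorylates IRF3, which turns on IFNB1. Secreted interferon then acts through its receptor and a complex that holds STAT2 and IRF9 on the interferon-stimulated genes, of which IRF7 and IRF1 are themselves examples. Much of this signalling runs through protein binding, phosphorylation and traffic, none of which RNA-seq measures.

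Of the 10 genes, 8 were expressed and 2, IRF7 and IFNB1, were silent, that is, under 10 estimated counts in every library. STING1 and IRF3 rose after IR, by 1.90-fold and 1.33-fold, and none of the genes passed the test as lower. The call of IRF3 was lost with an offset for GC content (adjusted P = 0.243) and that of STING1 with an offset for effective transcript length (adjusted P = 0.0752). Among the 8 genes tested, 2 therefore passed the test, against 30.1% of the 14323 genes tested in all, and 2 rose, against 15.5%, a share of members that is not far from this background. No member fell, against 14.5% of all genes, and at an unadjusted P under 0.05 the edgeR test gave 4 members higher and 0 lower. DESeq2's Wald test also called 2 members. The log2 fold change was positive for 7 of the 8, with a median of 0.20 beside 0.01 over all genes tested. The share of all genes that were positive, or that passed at an unadjusted P in either direction, was not taken. The counts of this kind, here and below, therefore have no background beside them.

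The libraries held between 18573309 and 22953834 estimated counts, except for IR replicate 3, which held 45308792 and has the smallest counting error. IR replicate 3 gave a chi-square per gene of 29.1 against IR replicate 1 and 32.2 against IR replicate 2, where other pairs of replicates gave 3.45 to 9.15. This chi-square was taken on counts and rises with depth, so the pairs are not on the same footing. How far IR replicate 3 stands apart beyond its depth was not tested, and its values are therefore given beside the results for each member. CDKN1A, a p53 target that halts the cell cycle, rose by 1.53 on the log2 scale and its groups did not overlap (120 to 124 counts per 1000000, CPM, untreated and 322 to 390 after IR). The 8 osteosarcoma and mesenchymal markers summed to 6090 to 6545 CPM in untreated and 6442 to 7157 in IR libraries, with 7 tested, TWIST1 silent and RUNX2 lower. In untreated libraries COL1A1 had a mean of 2931 CPM and COL1A2 one of 1.48. Markers of leukocytes, in which DNA sensing has been much studied, summed to 2.20 to 3.03 CPM in untreated and 2.08 to 2.56 in IR libraries, with CD3E at 0 throughout. PTPRC, at means of 1.48 CPM untreated and 0.878 after IR, and CSF1R were the 2 leukocyte markers tested, and neither was called. Epithelial markers summed to 18.4 to 24.2 and 22.0 to 22.6 CPM, with CDH1 higher, and endothelial markers to 3.75 to 5.18 and 4.60 to 5.93.

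Stretches of DNA just before the start sites are shown for the 4 genes whose promoters held a binding motif of the factors in this pathway. RefSeq promoters (GRCh38.p14, 250 bases before to 50 after the start) matched 6 of the 10 genes. They were IFI16, with 2 starts, IRF1, IRF9, IFNB1, TBK1 and TREX1. Capitals mark matches, on either strand, to the interferon regulatory factor core GAANNGAAA or to the STAT motif TTCNNNGAA. Each stretch is printed 5′ to 3′ on the strand of its gene and ends at the base before the start.
IFNB1 (chr9:21077943-21078172, minus strand): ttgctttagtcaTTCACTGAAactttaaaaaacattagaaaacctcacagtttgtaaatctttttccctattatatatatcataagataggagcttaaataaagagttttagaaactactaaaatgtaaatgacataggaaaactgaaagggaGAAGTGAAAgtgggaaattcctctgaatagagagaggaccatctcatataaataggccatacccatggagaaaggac
IRF9 (chr14:24161115-24161264, plus strand): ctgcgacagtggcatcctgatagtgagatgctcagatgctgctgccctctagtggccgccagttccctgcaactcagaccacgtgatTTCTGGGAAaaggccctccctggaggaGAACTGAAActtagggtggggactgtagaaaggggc
IRF1 (chr5:132490774-132490923, minus strand): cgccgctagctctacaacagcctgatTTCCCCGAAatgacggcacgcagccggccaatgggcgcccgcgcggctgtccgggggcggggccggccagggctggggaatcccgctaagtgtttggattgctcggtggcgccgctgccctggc
IFI16, second start (chr1:159009757-159009906, plus strand): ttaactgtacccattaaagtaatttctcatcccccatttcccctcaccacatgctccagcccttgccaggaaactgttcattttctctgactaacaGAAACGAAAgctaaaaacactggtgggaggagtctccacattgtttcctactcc

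The core matched in IFNB1, IRF9 and IFI16, with its first base 77, 36 and 54 bases before the start, and in 7.66% of 35116 RefSeq promoters of the same length. The STAT motif matched in IFNB1, IRF9 and IRF1, 218, 63 and 124 bases before the start, and in 7.66% of all promoters. The core was searched after the sequences had been seen. The longer form, GAAA and GAAA with any 2 bases between them, matched none of the 6 genes and 3.57% of all promoters. The promoters also differed in CpG content, with 36 CpG in the promoter of IRF1 and 35 in TBK1, between 1 and 7 in those of IFNB1, IFI16, TREX1 and IRF9, and a median of 14 over all promoters. A match is a string of letters and was not read as a bound site.

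Levels differed widely between the genes. Compared per length, as transcripts per 1000000 (TPM) in the untreated libraries, TBK1 was highest at 70.7 ± 2.56 (SD, n = 3), followed by IFI16 at 62.1 ± 1.91 and IRF3 at 40.3 ± 2.27. A wide gap separated these from IRF9 at 11.5 ± 2.21, IRF1 at 8.62 ± 3.94, CGAS at 6.15 ± 0.207 and TREX1 at 5.92 ± 0.256. STING1 was the lowest of the expressed genes at 1.65 ± 0.186, and 15.0% of tested genes lay below it, against 84.2% below TBK1. The ranges of neighbours in this order overlapped for IRF9 and IRF1, for IRF1 and CGAS, and for CGAS and TREX1, so these are not ordered beyond their spread, and did not overlap for any other neighbours among the expressed genes. After IR the TPM means were 58.3 ± 10.3 for TBK1, 71.2 ± 4.70 for IFI16, 61.0 ± 10.1 for IRF3 and 3.06 ± 1.40 for STING1 (SD, n = 3). The order of TBK1, IFI16 and IRF3 by mean was thus not kept. TPM served for levels between genes only, and changes after IR were read from counts. By counts TBK1 did not pass the test (log2 fold change -0.07, edgeR adjusted P = 0.607).

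The sensors came first in the pathway. CGAS, the enzyme that makes cGAMP (ENSG00000164430, chromosome 6, 73413515 to 73452297, GRCh38), had 11.3, 11.9 and 12.5 CPM in untreated replicates 1 to 3 and 13.6, 13.2 and 14.0 in IR replicates 1 to 3. The IR libraries all lay above the untreated ones, and the log2 fold change was 0.19 ± 0.0958 (SE) with a 95% confidence interval of -0.02 to 0.41 (edgeR quasi-likelihood test, Benjamini-Hochberg adjusted P = 0.151). Without IR replicate 3, its highest library, the change was 0.17 (edgeR adjusted P = 0.272). With an offset that removed each library's trend with GC content, the change was 0.30 with an adjusted P of 0.0426, so the call depends on that choice. CGAS transcripts are rich in A and T, with a GC content of 43.3%, and the 1360 tested genes within 1 percentage point of it shifted by a median of -0.10 on the log2 scale. One coding transcript, CGAS-201, carried 93.8% to 97.8% of the counts of the gene.

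IFI16, a nuclear DNA-binding protein that can act with STING (chromosome 1, 158999968 to 159055155), split the IR group. Its CPM values were 83.5, 85.4 and 81.8 in untreated replicates and 108, 101 and 83.0 in IR replicates 1, 2 and 3. IR replicates 1 and 2 lay above all untreated libraries, whereas IR replicate 3 lay among them. The log2 fold change was 0.22 ± 0.0924 (SE) with an edgeR adjusted P of 0.102. It was 0.32 with an adjusted P of 0.00307 without IR replicate 3, and 0.36 with an adjusted P of 0.00544 with the GC offset. The GC content of IFI16 was 40.2%, and the 1261 tested genes within 1 percentage point of it shifted by a median of -0.16. Coding transcripts carried 86.9% to 97.0% of its counts, with IR replicate 3 the lowest.

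STING1 encodes the receptor of cGAMP (ENSG00000184584, chromosome 5, 139475533 to 139482935). It had 2.36, 2.85 and 3.57 CPM in untreated replicates 1 to 3, which were 43, 64 and 73 counts, and 4.74, 4.68 and 7.11 CPM in IR replicates 1 to 3, which were 98, 86 and 321 counts. Every IR library lay above every untreated one, and IR replicate 3 was the highest. The change was 1.90-fold with a 95% interval of 1.35 to 2.69, a log2 fold change of 0.93 ± 0.225 (SE) (edgeR adjusted P = 0.0127), the largest of the 8 genes. Without IR replicate 3 the log2 fold change was 0.68 (adjusted P = 0.0443), and leaving out any 1 library gave 0.68 to 1.09 with adjusted P values of 0.0148 to 0.0488. With the GC offset the log2 fold change was 0.75 (adjusted P = 0.0309), whereas an offset for effective transcript length kept it at 0.93 with a wider error and an adjusted P of 0.0752, which lost the call. This offset used the effective lengths given by the authors, and whether it acts on length alone was not tested, for STING1 or for any other gene.

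The transcript estimates of STING1 varied within groups. The canonical coding transcript, STING1-201, took 17.5%, 48.7% and 62.6% of the gene's counts in untreated replicates and 56.6%, 91.4% and 65.9% in IR replicates. All coding transcripts of STING1 summed to 35.6%, 48.7% and 62.6% untreated and 66.4%, 91.4% and 68.7% after IR, and most of the rest was assigned to transcripts with a retained intron. The coding shares of the groups did not overlap, but they rest on few reads per library and were not tested.

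TREX1, the main cytosolic 3′ DNA exonuclease, which removes the ligand of cGAS (chromosome 3, 48465811 to 48467645), had 5.55, 5.53 and 4.64 CPM in untreated replicates and 4.84, 5.50 and 6.997 in IR replicates. The groups overlapped, and IR replicate 3 was the highest library. The log2 fold change of 0.16 ± 0.176 (SE) did not pass the test (edgeR adjusted P = 0.527), and its direction turned to -0.02 without IR replicate 3 and to -0.17 with the GC offset. All of the annotated exon bases of TREX1 (100%) lie within exons of ATRIP, a partner of the ATR kinase, on the same strand, so that reads could be divided between them in more than one way. The CPM of both genes together was 23.4 to 25.6 untreated and 24.2, 23.2 and 29.7 after IR, and ATRIP itself had a log2 fold change of 0.09 (adjusted P = 0.566).

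**Figure D1:**
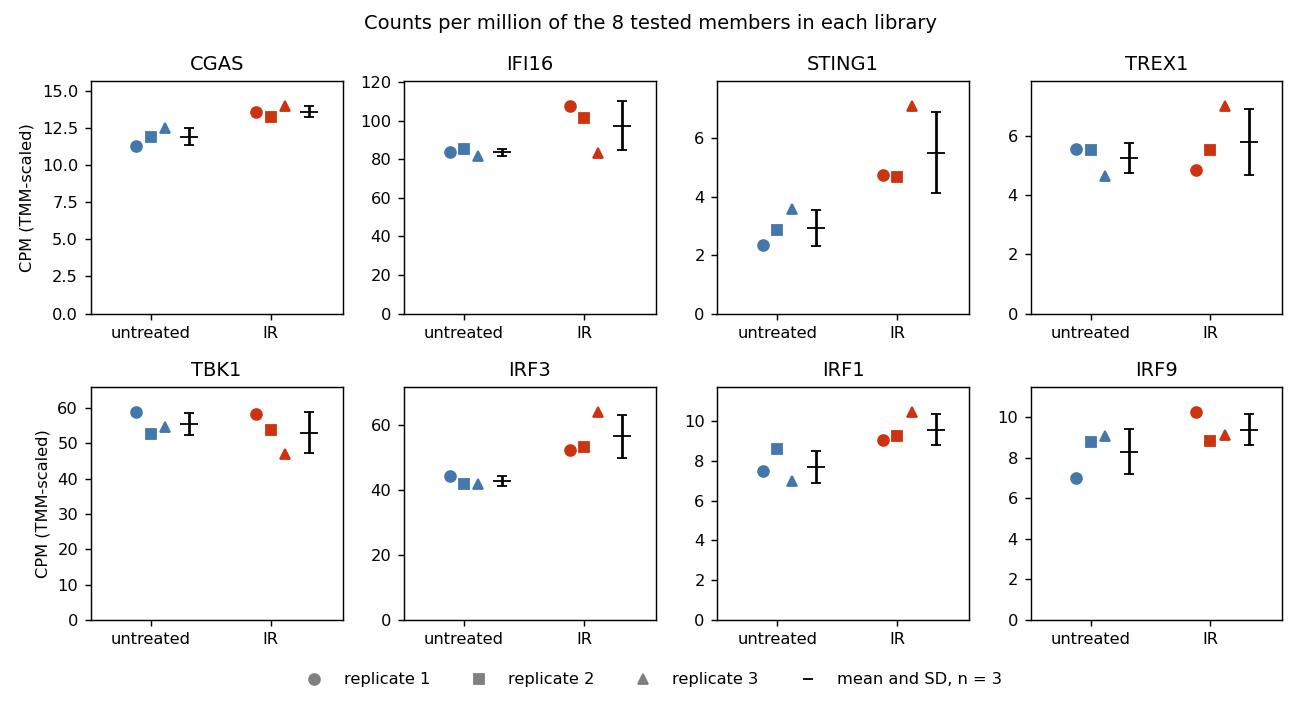
CPM, scaled by TMM, of the 8 expressed genes in each library (blue, untreated; red, IR; marker shape, replicate number; black, mean and SD, n = 3). The IR libraries lie above all untreated ones for CGAS, STING1, IRF3 and IRF1. IR replicate 3 is the highest library for these genes (14.0, 7.11, 64.0 and 10.5) and for TREX1 (6.997), and the lowest for TBK1 (47.0).

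TBK1, the kinase between STING and IRF3 (chromosome 12, 64452090 to 64502114), had 58.9, 52.7 and 54.7 CPM in untreated replicates and 58.4, 53.8 and 47.0 in IR replicates. The groups overlapped, with IR replicate 3 lowest. The log2 fold change was -0.07 ± 0.0890 (SE), with a 95% interval of -0.26 to 0.13 that bounds a change at 0.833-fold to 1.10-fold (edgeR adjusted P = 0.607). It became 0.02 without IR replicate 3 and 0.12 with the GC offset, in each case without passing the test. TBK1 had the lowest GC content of the 8 genes, 37.4%. Its 71 annotated transcripts, 47 of them above 0 in some library, divided the counts unevenly, and coding transcripts took 37.9%, 47.7% and 24.4% untreated and 42.9%, 29.1% and 39.9% after IR.

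IRF3 is the transcription factor that TBK1 activates (ENSG00000126456, chromosome 19, 49659569 to 49665875). It had 44.5, 41.9 and 42.0 CPM in untreated replicates and 52.2, 53.4 and 64.0 in IR replicates. The groups did not overlap, and the untreated libraries lay close together. The log2 fold change was 0.41 ± 0.0881 (SE), a 1.33-fold rise with a 95% interval of 1.16 to 1.52, and had the lowest P value of the 8 genes (edgeR adjusted P = 0.00780). Coding transcripts took 68.4%, 61.9% and 59.2% of the counts of IRF3 in untreated replicates and 52.1%, 56.3% and 63.6% after IR, so these shares overlapped, and transcripts marked for nonsense-mediated decay took 23.9% to 30.7%. The rise held without IR replicate 3, at 0.30 (adjusted P = 0.00562). With the GC offset it was 0.11 (adjusted P = 0.243), so that the call was lost, and with the effective length offset it was 0.64 (adjusted P = 0.0126). The GC content of IRF3 is 61.5%, and the 768 tested genes within 1 percentage point of it shifted by a median of 0.29 on the log2 scale. Exons of BCL2L12 on the other strand cover 19.3% of the exon bases of IRF3. BCL2L12 had a log2 fold change of 0.20 (adjusted P = 0.305), and whether reads were assigned by strand is not given in the sources used here.

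Among 11676 genes with at least 100 counts on average, those whose centred log2 CPM followed IRF3 most closely over the 6 libraries were BIN1, ERCC2 and GAREM2, with root mean square differences of 0.0192, 0.0217 and 0.0229. Genes picked in this way change much as IRF3 does by selection, and their log2 fold changes were 0.42, 0.45 and 0.41.

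IRF1, a transcription factor induced by interferon gamma (chromosome 5, 132440440 to 132508719), had 7.52, 8.61 and 6.99 CPM in untreated replicates and 9.05, 9.26 and 10.5 in IR replicates. The groups did not overlap. The log2 fold change of 0.32 ± 0.129 (SE) had an unadjusted P of 0.0321 and did not pass after adjustment (edgeR adjusted P = 0.0863), nor under any of the 15 alternatives, where it was 0.18 to 0.41. Without IR replicate 3, the highest library, it was 0.25 (edgeR adjusted P = 0.237). Coding transcripts of IRF1 took 83.5%, 75.0% and 59.5% of the counts untreated and 84.1%, 84.0% and 91.0% after IR. Of its exon bases, 3.96% are covered from the other strand by ENSG00000283782, which rose by 0.37 on the log2 scale (adjusted P = 0.00906). The groups of 4 of the 8 tested genes (CGAS, STING1, IRF3 and IRF1) did not overlap, against 47.1% of all tested genes. An exact two-sided permutation test of 3 against 3 libraries gave P = 0.1 for each of them, the smallest that this design allows.

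IRF9, the DNA-binding part of the complex that answers type I interferon (chromosome 14, 24161234 to 24168043), had 7.03, 8.79 and 9.09 CPM in untreated replicates and 10.3, 8.82 and 9.12 in IR replicates. The groups overlapped, and the log2 fold change was 0.18 ± 0.135 (SE) (edgeR adjusted P = 0.347). With the effective length offset its direction turned, to -0.08 (adjusted P = 0.784). The division of counts between transcript classes varied: coding transcripts of IRF9 took 9.8%, 36.6% and 2.2% in untreated replicates and 58.3%, 42.9% and 51.9% in IR replicates, with nearly all of the rest on transcripts with a retained intron. The lowest IR library was above the highest untreated one, as for STING1 and IRF1 but not for CGAS, IFI16, TBK1 or IRF3. How often such shares separate over all genes was not counted. No test was run on the shares of IRF9, which are estimates from 128 to 412 counts per library. ENSG00000259529 shares 32.1% of the exon bases of IRF9 on the same strand, and both together had 14.9, 14.6 and 16.4 CPM untreated and 15.2, 19.6 and 16.8 after IR.

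**Figure D2:**
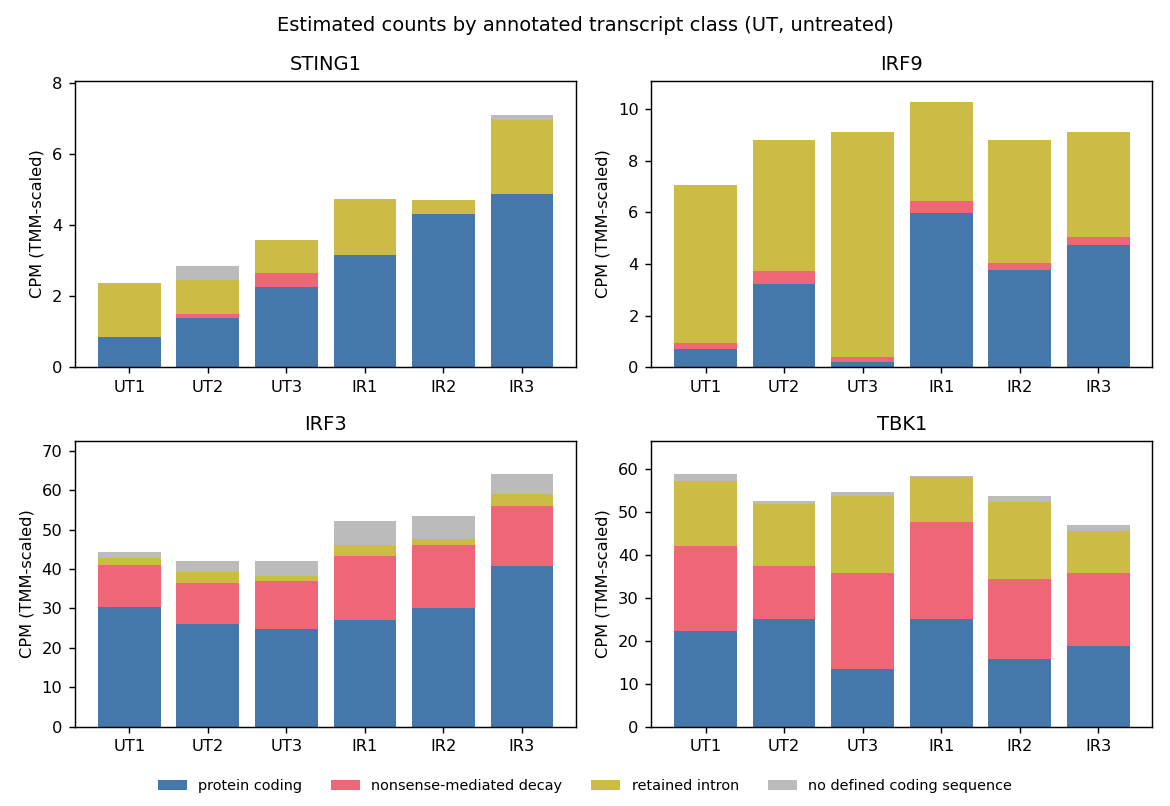
CPM of STING1, IRF9, IRF3 and TBK1 in each library (UT, untreated), stacked by the annotated class of the transcripts to which they were assigned. In IRF9 coding transcripts hold 2.2% to 36.6% in untreated and 42.9% to 58.3% in IR libraries, at totals between 7.03 and 10.3.

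IRF7, the factor that drives interferon alpha genes, had 0 counts in 5 libraries and 1 count, on a transcript with a retained intron, in IR replicate 1. IFNB1, which encodes interferon beta (chromosome 9, 21077104 to 21077942), had 0 counts in all 6 libraries. By counting error alone, a count of 0 allows up to 0.165, 0.134 and 0.147 CPM in untreated replicates and up to 0.145, 0.163 and 0.0664 in IR replicates. The same 2 genes were silent when the threshold was 1 TPM or 1 CPM in every library. Neither was tested, and no fold change is given.

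**Figure D3:**
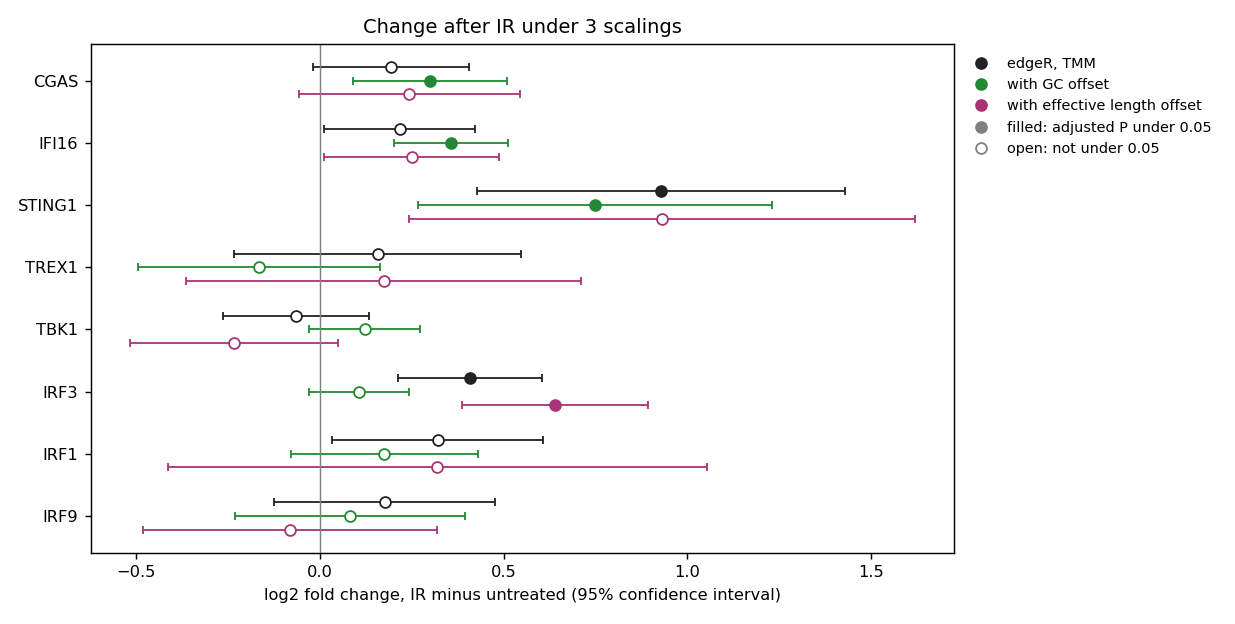
Log2 fold change after IR of the 8 expressed genes with 95% confidence intervals, from edgeR with TMM scaling (black), with a GC offset (green) and with an effective length offset (purple); filled points passed an adjusted P of 0.05. STING1 lies at 0.93, 0.75 and 0.93, whereas IRF3 moves from 0.41 to 0.11 with the GC offset and, of these 3 fits, CGAS and IFI16 pass in the GC one only.

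Genes that passed the test were not the same set under the GC offset. There, 3 of the 8 passed, namely STING1, CGAS and IFI16, against 24.2% of all genes tested, and IRF3 did not. The 7 positive changes out of 8 remained 7, but TBK1 had turned positive and TREX1 negative, and the median of the 8 was 0.15. IR replicate 3 also differed from the mean of the other IR libraries in several members. On the log2(CPM + 0.5) scale it was 0.55 for STING1, 0.40 for TREX1 and 0.28 for IRF3, which are rich in G and C. It was -0.25 for TBK1 and -0.33 for IFI16, which are rich in A and T. The medians over tested genes within 1 point of the same GC content were 0.11, 0.19 and 0.17, and -0.12 and -0.10. CGAS and IRF9 went the other way from the genes of their GC content, at 0.06 against -0.09 and at -0.06 against 0.05, and IRF1 was at 0.18 against 0.09. The part of GC content in these changes was not tested beyond the offset.

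**Figure D4:**
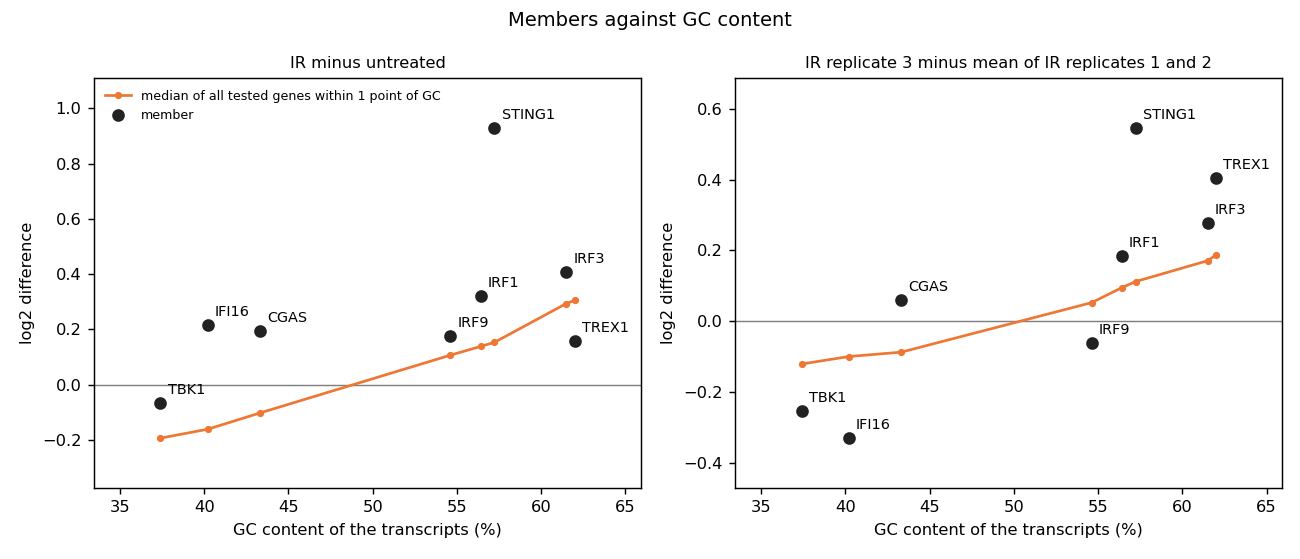
Log2 difference against the GC content of the transcripts, for IR minus untreated (left) and for IR replicate 3 minus the mean of IR replicates 1 and 2 (right). Black points are the 8 expressed genes and the orange line joins the median of all tested genes within 1 percentage point of each. STING1, at 57.2% GC, lies above the line in both panels (0.93 against 0.15, and 0.55 against 0.11), and IFI16 lies above it on the left (0.22 against -0.16) and below it on the right.

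The wider pathway was read from 8 lists of genes around these members, described by counts. A list of 20 genes held further RNA and DNA sensors and some of their adaptors and partners. Of these, 12 were tested, 3 rose and 2 fell (15.5% and 14.5% of all tested genes did), with a median log2 fold change of 0.12. In the list 7 genes were silent, among them AIM2, ZBP1, TLR7, TLR8 and TLR9. TICAM1, the adaptor of TLR3, rose by 0.76, UNC93B1, which escorts Toll-like receptors to endosomes, by 0.74, and RIGI, the cytosolic sensor of RNA ends, by 0.44 on the log2 scale. LRRFIP1 fell by 0.34 and EIF2AK2, the kinase PKR, fell by 0.37. The next list held 20 genes around STING, namely its partners, genes of its traffic, and genes that act on cGAS or on cyclic dinucleotides. All were tested, and 2 rose and 0 fell by edgeR (5 and 2 at an unadjusted P under 0.05, and 1 and 0 by DESeq2). Their median log2 fold change was -0.00. The risen genes were SLC19A1, a folate carrier that also imports cyclic dinucleotides (0.55), and the ubiquitin ligase TRIM32 (0.21). SLC19A1 did not pass with the GC offset (0.17, adjusted P = 0.102), and TRIM32 did not pass without IR replicate 3 (adjusted P = 0.0892).

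Downstream of STING, all 20 partners of TBK1 and genes of NF-kB were tested. Of these, 6 rose and 1 fell (15.5% and 14.5% of all tested genes did), and their median change was 0.16. The adaptor TBKBP1 rose by 0.54, the autophagy receptor OPTN by 0.29 and TNIP1, an inhibitor of NF-kB, by 0.28, and the ubiquitin ligase TRAF6 fell by 0.34. Without untreated replicate 1, or without IR replicate 2, 2 genes of this list passed as higher, without untreated replicate 3, 3 did, and with the GC offset TBKBP1 and TNIP1 did not pass (adjusted P = 0.0578 and 0.317). Of 16 genes listed under nucleic acid clearance, ATRIP among them, 14 were tested, 3 rose and 3 fell, with a median of -0.01. Of those tested, 35% were called in the TBK1 and NF-kB list and 42.9% in this one, against 30.1% of all genes. The lysosomal nucleases PLD3 and DNASE2 rose by 0.50 and 0.38 and DNASE1L1 by 0.37, whereas the RNA exonuclease XRN1 fell by 0.49, DNASE1 by 0.27 and SAMHD1, which breaks down deoxynucleotides, by 0.24. SAMHD1 did not pass with the GC offset (-0.15, adjusted P = 0.137), and the count of lower genes dropped from 3 to 1 with the replicate block or without untreated replicate 1, untreated replicate 2 or IR replicate 2.

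Interferon genes other than IFNB1 were near 0 as well. Of 21 ligands none reached the test, 20 were silent and 18 had 0 counts in every library, and IFNE, the exception, reached 12 counts at most. Of 20 receptor and JAK-STAT genes, 18 were tested, 3 rose and 4 fell (15.5% and 14.5% of all tested genes), with a median of -0.15. STAT2, a partner of IRF9, rose by 0.30, IL10RB by 0.32 and the kinase TYK2 by 0.25, whereas JAK2 fell by 0.52, and the phosphatases PTPN2 and PTPN11 by 0.33 and 0.32. With the GC offset TYK2 turned to -0.05 (adjusted P = 0.652) and JAK2 did not pass (-0.30, adjusted P = 0.0947), and TYK2 did not pass without IR replicate 3 either (adjusted P = 0.104). The count of higher genes was 1 without untreated replicate 1, and that of lower genes was 2 without untreated replicate 3. Of 8 other interferon regulatory factors and IRF2-binding proteins, 5 were tested and edgeR called 0, with 3 higher and 1 lower at an unadjusted P under 0.05 and 1 higher by DESeq2. Of 42 interferon-stimulated genes, 33 were tested, 8 rose and 1 fell (15.5% and 14.5% of all tested genes), with a median of -0.01. Among those that rose, IFIT2, IFIT3 and TRIM22 changed by log2 fold changes of 1.20, 1.03 and 0.83, and the lower gene, OAS3 (-0.23, adjusted P = 0.0396), was not called in any fit that left out 1 library.

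**Figure D5:**
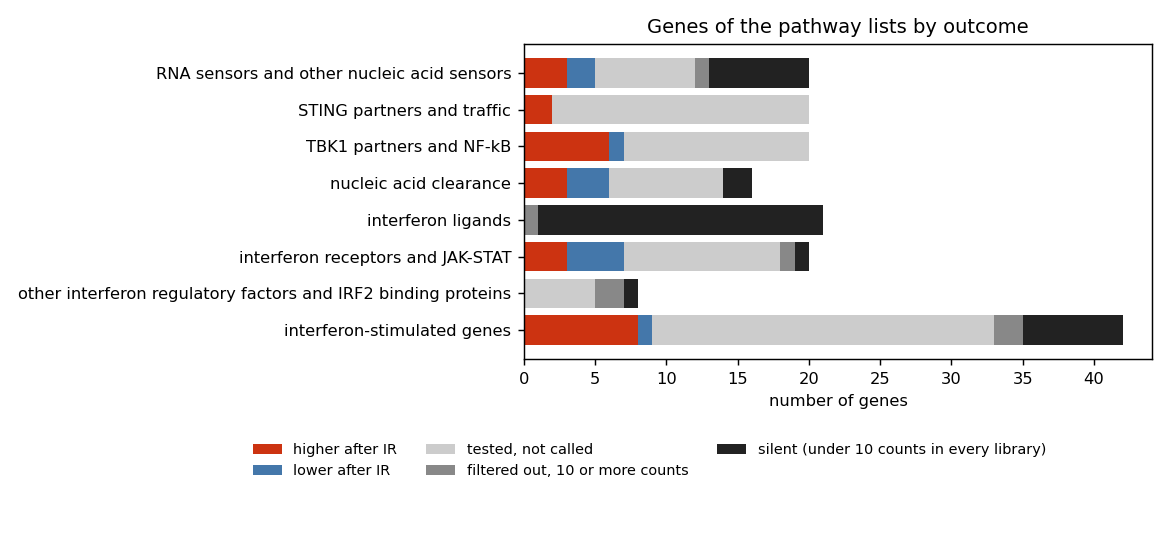
Number of genes of each of 8 pathway lists that were higher or lower after IR (adjusted P under 0.05), tested without a call, filtered out with at least 10 counts in some library, or silent. Silent genes fill 20 of the 21 places of the interferon ligands, and the list of genes around STING has 2 of 20 called, against 30.1% of all genes tested.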

How the data were processed

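Poly(A) RNA per the labels (the study's methods name a kit for total RNA) was sequenced from 3 untreated and 3 irradiated samples of U-2 OS cells. The authors assigned reads with kallisto (version not given in the sources used here) to GENCODE release 37 of GRCh38. For each transcript and library, estimated counts, not normalized, were deposited by the authors, with TPM values that they scaled for effective length and library total, and with lengths. One deposited file, of IR replicate 3, has a mark in its name that could stand for a repeat, and the labels are silent on it.

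Of 161171 transcripts, 158711 had their identifier in GENCODE release 44, and the other 2460 were not used. For each gene the estimated counts were added up, rounded and filtered by filterByExpr, which kept 14323 of 21447 genes, all 8 expressed members among them. They were scaled by TMM and tested by edgeR's quasi-likelihood test (edgeR 4.0.16, limma 3.58.1, R 4.3.3) with Benjamini-Hochberg adjustment at 0.05. DESeq2 1.42.0 served as an alternative. CPM is relative to the TMM-scaled library size. The SE was taken as the size of the fold change (log2) divided by the root of the F statistic. TPM was summed per gene, for levels between genes only. GC content is that of a gene's transcripts, and the GC offset used a spline with 5 degrees of freedom. Floors are 3 counts, and floors cover counting error only.

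The members and all lists were chosen with earlier results of these data known. Of each list, the called genes with the 3 lowest P values in each direction were named. CDKN1A and genes that share exons with a member were also named. The scripts were tested on simulated data. Replicate numbers were checked for pairing by the correlation of deviations from the group means, which for same-numbered libraries was -0.03, 0.04 and -0.05. Protein sequences were not analysed here.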

Additional observations from a re-analysis of the deposited data

How the results depend on the processing

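STING1 kept its call under 14 of 15 alternatives and IRF3 under 13, and IRF1, IRF9, TBK1 and TREX1 were called under none. With the GC offset IRF3 fell to 0.11 and lost its call, CGAS at 0.30 and IFI16 at 0.36 gained one, and TBK1 (0.12) and TREX1 (-0.17) reversed. With the GC offset and the replicate block together, IRF3 was at 0.10 (adjusted P = 0.299), IFI16 at 0.36, TBK1 at 0.12 and TREX1 at -0.17, CGAS was not called (0.29, adjusted P = 0.0665), and 1396 genes were higher in all. The effective length offset left 1 member called, with STING1 at 0.93 and not called and IRF9 reversed at -0.0825, and gave 833 genes higher and 875 lower in all, and 10 higher and 4 lower over the pathway lists. Leaving out 1 library gave 2 to 3 members called, log2 fold changes of -0.15 to 0.02 for TBK1 (reversed at 0.0204 without IR replicate 3), -0.02 to 0.25 for TREX1 (reversed at -0.0206 without IR replicate 3) and 0.12 to 0.32 for IFI16, 1314 to 2144 genes higher and 1257 to 2282 lower in all, and 16 to 25 higher and 6 to 12 lower over the lists. Without untreated replicate 1 or 2 the counts over all genes fell most, to 1314 and 1371 higher. Every fit that left out 1 library had the same number of libraries, and the cause of the differences between them was not tested.

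Same-numbered libraries did not deviate together, so the numbers were taken as names only. The replicate block gave 1727 genes higher and 1624 lower and 7 lower over the lists, and it changed no member's call, with STING1 at 0.91 and IRF3 at 0.40. Depth limits STING1 most, with 43 counts in 1 library, and it limits IFNB1, and IRF7 in the 5 libraries without a count, to the upper bounds given for a count of 0.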
